A study of Mus musculus with 4 samples.

Results

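Cyclins and cyclin-dependent kinases were examined in whole-testis RNA of Ythdf2 mutant mice, the mutation being limited to germ cells. Ythdf2 encodes a reader of N6-methyladenosine in RNA. The genes were chosen by symbol from a table of 25265 genes. A gene was taken if its symbol was Ccn followed by a letter and a number or a letter alone, or Cdk followed by a number, and 1 symbol ending in -ps was dropped. This gave 52 genes, of which 25 were cyclins, 19 were kinases and 8 carried such a symbol without being either. All 52 passed the filter on low counts, and the lowest count of any of them in a library was 52. The 8 others were Ccnb1ip1, a factor of meiotic crossover formation, the proteins Cdk2ap1, Cdk2ap2, Cdk5rap1, Cdk5rap2 and Cdk5rap3, the Cdk5 activator Cdk5r1, and Cdk19os, a noncoding RNA antisense to Cdk19.

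Cyclins are proteins whose levels rise and fall and which switch on partner kinases. D-type cyclins act with Cdk4 and Cdk6 early in the cycle, E-type and A-type cyclins act with Cdk2, and A-type and B-type cyclins act with Cdk1 at division. Some other members of both families pair with each other to phosphorylate RNA polymerase II. The testis holds mitotic spermatogonia, spermatocytes in meiosis and spermatids that no longer divide, and it makes 2 cyclins, Ccna1 and Ccnb3, whose known expression is centred on germ cells in meiosis.

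Testes of C57BL/6 mice were taken at postnatal day 56, giving 2 control libraries and 2 that carry the label Ythdf2-vKO. The alleles that the controls carry, the promoter that limits the mutation to germ cells and the mutated segment are not given in the sources used here, and neither is whether each library is a separate animal, so p-values measure only the spread between these libraries, which may be technical. The control libraries held 24862518 and 29561182 counts in genes, and the libraries labelled vKO held 26298245 and 26265700. Levels are given as CPM, counts scaled to a common library size of 1e6 with TMM factors, and each gene was tested with the quasi-likelihood method of edgeR, its p-values adjusted by Benjamini-Hochberg over the 21132 genes tested. The targeted gene itself showed no decrease. Ythdf2 had 51.0 and 53.5 CPM in control against 66.3 and 67.0 CPM in the libraries labelled vKO, and its log2 fold change (log2FC, libraries labelled vKO minus control) was 0.35 (SE 0.13, adjusted p 0.238). Counts cover the whole gene, so RNA of an allele that lacks a segment would be counted too. What set the level of Ythdf2 in these libraries was not tested. Every direction refers to the labels. Markers of the germ cell stages and of Sertoli cells were detected in all 4 libraries.

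None of the 52 genes passed an adjusted p of 0.05, where 83 of all genes tested (0.393%) did. The smallest adjusted p among them was 0.105, for Cdk5rap2. At an unadjusted p under 0.05 there were 6 of 52 (11.5%), against 14.1% of all genes tested. Of these, 3 were higher (Ccnd2, Cdk9 and Cdk15, where 7.65% of all genes were) and 3 lower (Ccna1, Cdk6 and Cdk5rap2, where 6.47% of all genes were). The control libraries and the libraries labelled vKO did not overlap in 27 of the 52 genes (51.9%), where the share over the whole table was 45.3%. Of these 27, 11 were higher (all genes 22.7%) and 16 lower (all genes 22.6%) in the vKO-labelled libraries. The median log2FC of the 52 genes was 0.0202, beside 0.00265 over all genes tested, and 48 of the 52 had an absolute log2FC under 0.5.

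**Figure D1:**
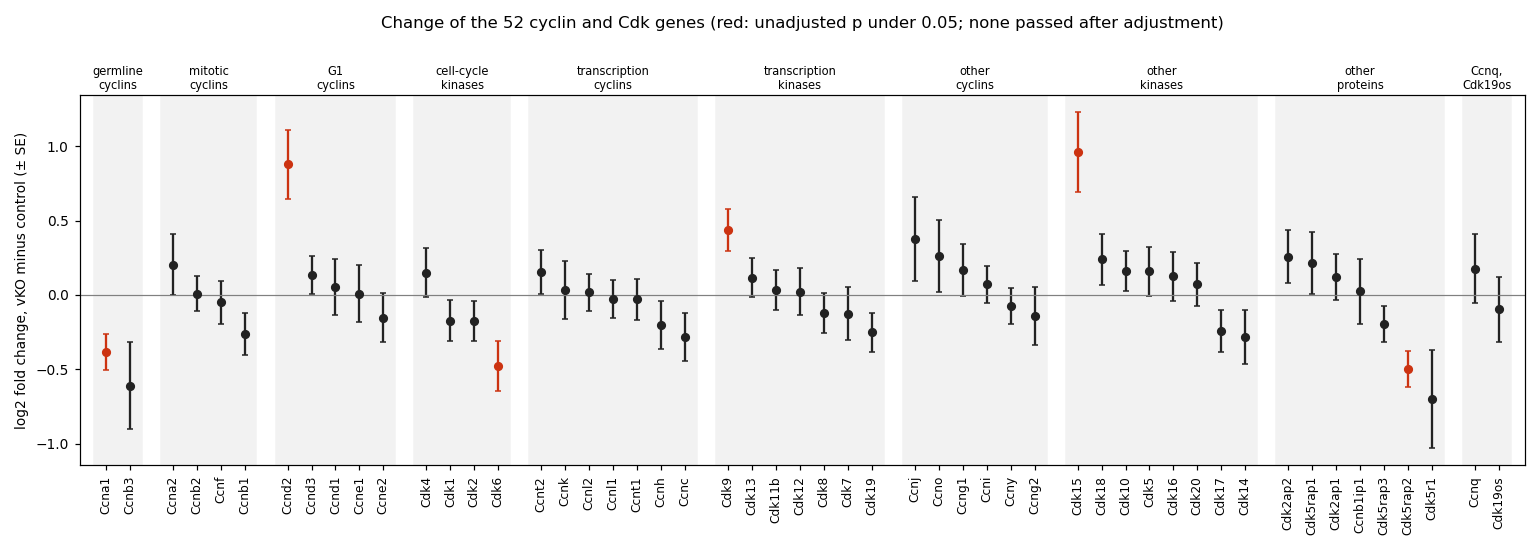
Log2FC of each of the 52 genes (vertical axis, libraries labelled vKO minus control, bars ± SE from the edgeR fit), grouped by role along the horizontal axis. Red points are the 6 genes with an unadjusted p under 0.05. None passed after adjustment. Ccnd2 and Cdk15 are the highest, and Cdk5r1 and Ccnb3 the lowest.

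The count of 0 did not hold under every alternative. A DESeq2 Wald test called 1 of the 52 genes, Cdk5rap2, where 1.32% of all genes were called. Without control replicate 1, edgeR called 4 (Ccnk, Cdk9 and Cdk16 higher, Cdk5rap2 lower), where 6.82% of all genes were called. Without control replicate 2 it called 5 (Ccnd2 and Cdk15 higher, Ccna1, Cdk6 and Cdk5rap2 lower), where 4.93% were called. In these 2 fits the lone control library is assumed to vary like the other group. Leaving out each library labelled vKO in turn gave 0 calls among the 52, in fits that called few genes in all (30 higher and 5 lower without vKO replicate 1, 77 and 21 without vKO replicate 2).

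The 2 germline cyclins were described first, since they differ from the mitotic ones in where they act. Ccna1 (ENSMUSG00000027793, minus strand of chromosome 3, 55045469 to 55055501 in GRCm38) encodes cyclin A1, which male mice need to leave meiotic prophase. Its counts were 3897 and 4400 in control, against 3157 and 3296 in the vKO-labelled libraries, which is 167 and 147 against 118 and 122 CPM. Both libraries labelled vKO lay under both control libraries. Its log2FC was -0.38 (SE 0.12, unadjusted p 0.00826, adjusted p 0.196). It was -0.47 without control replicate 2, -0.30 without control replicate 1, -0.36 without vKO replicate 1 and -0.41 without vKO replicate 2. An antisense gene, 4931419H13Rik, overlaps exons of Ccna1 and had 186 and 178 counts in control, against 129 and 160 in the vKO-labelled libraries.

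Ccnb3 (ENSMUSG00000051592, minus strand of chromosome X, 6979652 to 7041619) encodes a B-type cyclin known from early meiotic prophase. It had 113 and 135 counts in control, against 105 and 59 in the vKO-labelled libraries, which is 4.83 and 4.5 against 3.92 and 2.19 CPM. The groups did not overlap, and the libraries labelled vKO differed from each other more than the control libraries did. The fit gave a log2FC of -0.61 (SE 0.29, adjusted p 0.375). It was -0.25 without vKO replicate 2 and -1.09 without vKO replicate 1, so its size was set largely by vKO replicate 2.

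The mitotic cyclins did not share a direction. Ccnb1, the B-type cyclin of the mitotic and meiotic Cdk1 complex, had 95.7 and 105 CPM in control, against 74.3 and 93.1 CPM in the vKO-labelled libraries (log2FC -0.26, SE 0.14, adjusted p 0.429), and without vKO replicate 1 its log2FC was -0.11. Ccnb2, the second Cdk1 partner of the B type, had 151 and 147 CPM in control, against 147 and 154 CPM in the vKO-labelled libraries, with overlapping groups and a log2FC of 0.0091 (SE 0.12, adjusted p 0.985). The sign of this small value changed without control replicate 2 and without vKO replicate 2. Ccna2, the A-type cyclin of dividing somatic cells and spermatogonia, had 7.74 and 11.1 CPM in control, against 10.3 and 11.6 CPM in the vKO-labelled libraries. Its groups overlapped, its log2FC was 0.20 (SE 0.21, adjusted p 0.723), and without control replicate 1 it was -0.04. Ccnf, an F-box cyclin that acts in protein destruction and not through a Cdk, had 23.5 and 22.1 against 22.2 and 21.8 CPM (log2FC -0.05, adjusted p 0.923). With library totals alone in place of TMM its log2FC was 0.02.

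The annotation limits these values. Of the 52 genes, 20 share exon sequence with a gene on the opposite strand and 9 have a near copy elsewhere or an overlapping gene of at least 95% identity over 300 nt. Ccna2 shares exon sequence with Exosc9 on the opposite strand, which had 855 and 1347 counts in control, against 849 and 839 in the vKO-labelled libraries, where Ccna2 itself had 181 and 334 against 275 and 312. Ccnb1 has processed pseudogenes of up to 99.2% identity over 1287 nt, of which Ccnb1-ps held between 1 and 5 counts a library. Whether reads were counted by strand is not given in the sources used here.

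**Figure D2:**
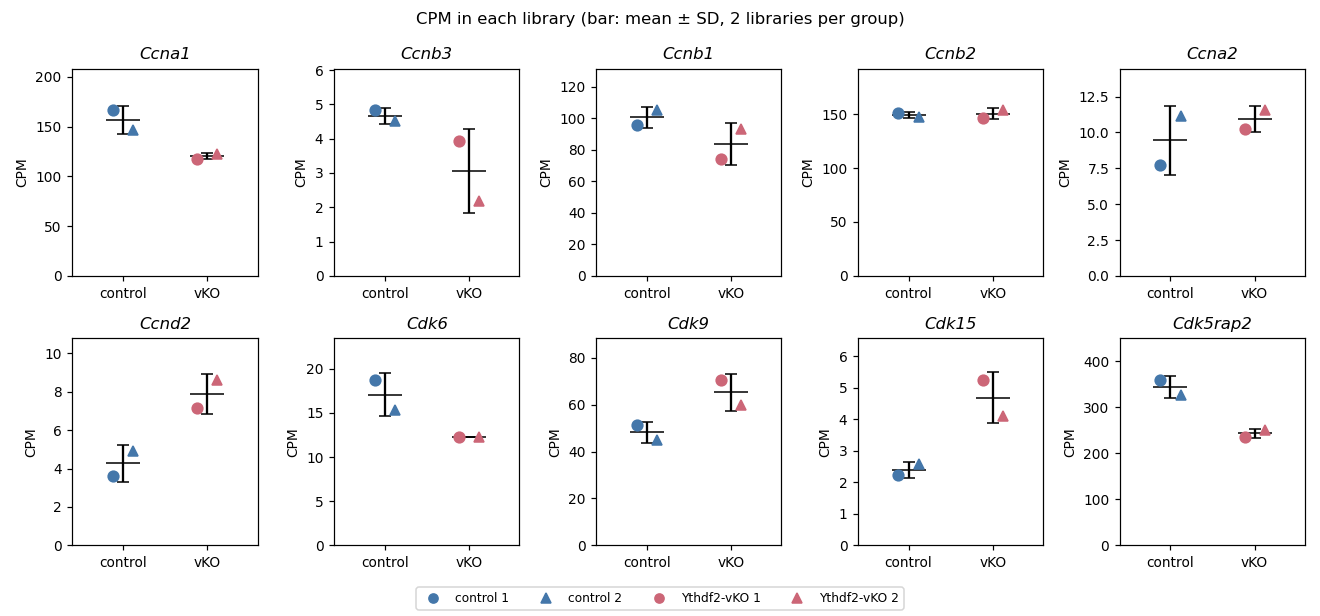
CPM (vertical axes, each from 0) of 10 genes in the 2 control libraries (blue) and the 2 libraries labelled vKO (red), with circles for replicate 1, triangles for replicate 2 and bars for the mean ± SD. The groups overlap for Ccnb2 and Ccna2 and are apart for the other 8 genes. The 10 include every studied gene with an unadjusted p under 0.05, and 45.3% of all genes tested were apart.

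Per length, the germline pair took opposite places. In CPM per kilobase of exon, Ccna1 was at 85.4 ± 7.69 in control (SD, n = 2), above Ccna2 at 2.31 ± 0.588, while Ccnb3 was at 1.02 ± 0.0513, under Ccnb1 at 23.8 ± 1.58 and Ccnb2 at 97.5 ± 1.67. The ratio of Ccna1 to Ccna2 within a library was 47.8 and 29.3 in control, against 25.5 and 23.5 in the vKO-labelled libraries. It was lower in both libraries labelled vKO, with a log2 difference of -0.61 and an exact two-sided permutation p of 0.333, the smallest that 2 libraries against 2 can give. The difference was -0.26 without control replicate 1, the library with the fewest counts of Ccna2, and -0.97 without control replicate 2. The ratio of Ccnb3 to Ccnb1 was 0.0469 and 0.0397 in control, against 0.049 and 0.0219 in the vKO-labelled libraries. These overlapped (log2 difference -0.40, exact two-sided permutation p 1.0), and without vKO replicate 2 the difference was 0.18. Benjamini-Hochberg adjustment over these 2 exact tests gave 0.667 and 1.0.

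**Figure D3:**
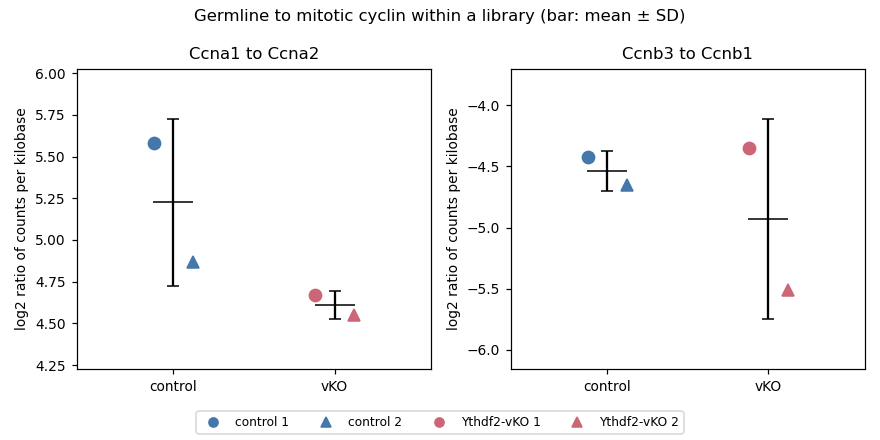
Log2 ratio of counts per kilobase (vertical axes) of Ccna1 to Ccna2 and of Ccnb3 to Ccnb1 in each library, with bars for the mean ± SD. The Ccna1 ratio is lower in both libraries labelled vKO, and control replicate 1 is the highest at 5.58. The Ccnb3 ratio overlaps between the groups.

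Most markers of spermatocytes and of elongating spermatids lay on the same side as the germline cyclins. Of 14 spermatocyte markers 12 were lower in the vKO-labelled libraries (median log2FC -0.14), with a summed level of 2680 and 2810 CPM in control, against 2640 and 2480 CPM in the vKO-labelled libraries. Of 10 elongating spermatid markers 9 were lower (median -0.29), with a summed level of 11700 and 9680 against 8980 and 9250 CPM, highest in control replicate 1, without which the median was -0.17. Round spermatid markers were split, 5 higher and 5 lower. No tested marker of these lists was called, and their part in the values of Ccna1 and Ccnb3 was not tested. In RNA of a whole testis, fewer cells of a type and less RNA per cell cannot be told apart.

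The sequences before the start sites of 3 of these cyclins are shown because they differ in the CCAAT box, the letters that NF-Y binds and that mitotic cyclin promoters are known for. Each run is the 180 bases before the RefSeq start in GRCm38.p6, 5′ to 3′ on the gene's strand, with CCAAT or its reverse complement ATTGG in capitals.
Ccna1: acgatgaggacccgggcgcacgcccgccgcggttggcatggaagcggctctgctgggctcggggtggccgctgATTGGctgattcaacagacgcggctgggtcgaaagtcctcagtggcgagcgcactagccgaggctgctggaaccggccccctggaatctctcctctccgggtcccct
Ccnb3: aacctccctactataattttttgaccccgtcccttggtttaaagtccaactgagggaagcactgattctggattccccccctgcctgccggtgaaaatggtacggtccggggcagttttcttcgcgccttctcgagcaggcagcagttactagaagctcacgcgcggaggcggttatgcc
Ccnb2: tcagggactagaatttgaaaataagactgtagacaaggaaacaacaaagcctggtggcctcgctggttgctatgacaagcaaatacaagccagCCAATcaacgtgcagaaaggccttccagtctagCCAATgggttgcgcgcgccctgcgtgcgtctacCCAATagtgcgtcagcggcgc

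These windows lie at chr3:55055056-55055235 for Ccna1, chrX:7041620-7041799 for Ccnb3 and chr9:70421555-70421734 for Ccnb2, each on the minus strand. The Ccna1 window ends at a start that RefSeq shares with a GENCODE M21 transcript. Other M21 transcripts of Ccna1 start further upstream, so the window lies inside the gene span given for it, in an intron of those transcripts. The CCAAT letters, searched on both strands, were found 3 times in Ccnb2, 1 time in Ccna1 and 0 times in Ccnb3, and in windows not printed 2 times each in Ccnb1 and Cdk1. Over all 32851 promoter windows of this length, 27.5% held them. Among the 44 windows of the 41 genes studied that had an entry, 19 (43.2%) did. The letters TTTGAA, a form of the cell-cycle homology region, were searched on both strands too and were found in 13.6% of these windows and 11% of all windows. A match describes these letters only, and RNA counts do not bear on whether a factor binds there.

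Of all the cyclins, Ccnd2 had the highest log2FC. Ccnd2 (ENSMUSG00000000184, chromosome 6, 127125162 to 127152193), a D-type cyclin known from spermatogonia, had 84 and 148 counts in control, against 191 and 233 in the vKO-labelled libraries. This gave 3.59 and 4.94 CPM against 7.14 and 8.64 CPM, with both libraries labelled vKO above both controls. The log2FC was 0.88 (SE 0.23, unadjusted p 0.00237, adjusted p 0.129), and without control replicate 2 it was 1.13 with an adjusted p of 0.00442. Leaving out control replicate 1 gave 0.67 (adjusted p 0.109), and without vKO replicate 2 it was 0.73 (adjusted p 0.41). Its level per length was the lowest of the 52 genes in control, at 0.453 ± 0.101 CPM per kilobase.

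The other D-type cyclins did not follow Ccnd2. Ccnd3 had 178 and 150 CPM in control, against 177 and 183 CPM in the vKO-labelled libraries (log2FC 0.13, SE 0.13, adjusted p 0.699), and its log2FC was -0.00552 with an offset for GC content. Ccnd1 had 9.45 and 8.24 against 9.11 and 9.23 CPM (log2FC 0.05, adjusted p 0.938), and -0.04 without control replicate 2. The E-type cyclins, which mice need in meiotic prophase, overlapped between groups as well. Ccne1 had 9.41 and 7.74 against 8.33 and 8.90 CPM (log2FC 0.0095, adjusted p 0.991), and its sign changed in 4 of 13 alternatives. Ccne2 had 30.1 and 35.8 against 33.9 and 25.4 CPM (log2FC -0.15, adjusted p 0.739), with 0.04 without vKO replicate 2.

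Markers of Sertoli cells and spermatogonia lay on the side of Ccnd2. All 12 Sertoli markers were higher in the vKO-labelled libraries (median log2FC 0.47), beside 10632 of the 21132 genes tested. Their summed level was 1270 and 1350 CPM in control, against 1880 and 1640 CPM in the vKO-labelled libraries. Of these 12 markers 1 was called, Wt1, where 0.279% of all genes were called higher. All 12 tested spermatogonial markers were higher as well (median 0.30), with summed levels of 163 and 159 against 201 and 177 CPM and none called. The 13th marker of that list, Nanos2, was not analysed here. Higher values were also seen for 7 of 8 Leydig cell markers (median 0.38), 5 of 6 endothelial (median 0.40), 6 of 7 macrophage (median 0.07) and 4 of 4 erythrocyte markers tested (median 0.76), against 2 of 6 for peritubular myoid cells, with none called. The part of these cell types in the value of Ccnd2 was not tested. Ccnd2 shares exon sequence with 2 antisense genes that were not analysed here.

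Among the kinases of the cell cycle, 3 of 4 lay lower without overlap, where 22.6% of all genes did, and none passed the test. Cdk6, a partner of D-type cyclins (ENSMUSG00000040274, chromosome 5, 3341485 to 3531008), had 18.8 and 15.4 CPM in control, against 12.3 and 12.2 CPM in the vKO-labelled libraries (log2FC -0.48, SE 0.17, unadjusted p 0.0146, adjusted p 0.230). Its log2FC was -0.61 without control replicate 2, -0.33 without control replicate 1, -0.48 without vKO replicate 1 and -0.47 without vKO replicate 2. Cdk1, the kinase of division, had 34.7 and 36.0 against 32.9 and 29.8 CPM (log2FC -0.17, adjusted p 0.632). Cdk2, which mice need for meiosis more than for mitosis, had 73.5 and 75.4 against 71.9 and 60.0 CPM (log2FC -0.17, adjusted p 0.616). Cdk4, the other partner of D-type cyclins, had the control libraries furthest apart of these kinases, with 23.8 and 33.5 CPM against 32.0 and 31.7 CPM (log2FC 0.15, adjusted p 0.750), and without control replicate 1 its log2FC was -0.08. Cdk4 shares exon sequence with Tspan31 on the opposite strand, which had 184 and 347 counts in control, against 308 and 290 in the vKO-labelled libraries, so control replicate 1 was lowest for both genes. Cdk2 likewise shares exon sequence with Pmel, which had 367 and 355 counts in control against 347 and 364. Cdk3 was not analysed here.

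Kinases and cyclins that act on transcription made up 14 of the genes, and 13 of them had an unadjusted p above 0.05. The exception was Cdk9 (ENSMUSG00000009555, minus strand of chromosome 2, 32705784 to 32713076), the kinase that releases paused RNA polymerase II. It had 51.5 and 44.9 CPM in control, against 70.8 and 59.8 CPM in the vKO-labelled libraries (log2FC 0.44, SE 0.14, unadjusted p 0.00811, adjusted p 0.194). The groups did not overlap. Without control replicate 1 it was 0.53 with an adjusted p of 0.00842, without control replicate 2 it was 0.34 with an adjusted p of 0.167, and without vKO replicate 1 it was 0.31 with an adjusted p of 0.892. Its cyclins did not stand with it. Ccnt1 had a log2FC of -0.03 (adjusted p 0.958) and Ccnt2 of 0.15 (adjusted p 0.705).

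Ccnc, Cdk8 and Cdk19, the genes of the Mediator kinase module studied here, lay lower without overlap, where 22.6% of all genes did. None passed the test. Ccnc had 15.0 and 15.1 CPM in control and 12.4 in each library labelled vKO, without overlap (log2FC -0.28, SE 0.16, adjusted p 0.471). Its partner Cdk19 had 70.2 and 63.3 against 59.3 and 52.8 CPM (log2FC -0.25, adjusted p 0.427), and its other partner, Cdk8, 32.4 in each control library against 30.4 and 29.3 CPM (log2FC -0.12, adjusted p 0.757). Cdk19 and Cdk19os overlap on opposite strands, and Cdk19os had 1323 and 989 counts in control, against 1094 and 1153 in the vKO-labelled libraries. Ccnc shares exon sequence with Tstd3 on the opposite strand, which had 228 and 290 counts in control against 230 and 193. The kinase of the general transcription factor TFIIH, Cdk7, and its cyclin, Ccnh, had log2FCs of -0.13 and -0.20 with overlapping groups.

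Ccnk, the cyclin of Cdk12 and Cdk13, had the highest level per length in control and the largest SD on that scale. As a ratio between the control libraries, Cdk5r1 and Cdk19os were further apart. Its level was 178 and 111 CPM per kilobase in control, against 156 and 141 in the vKO-labelled libraries, which lay between the controls. Its log2FC was 0.04 (SE 0.20, adjusted p 0.964). Without control replicate 1 it was 0.41, with control replicate 2 as the only control, so this value depended on which control was used. Cdk16 had 156 and 106 CPM in control, against 148 and 138 CPM in the vKO-labelled libraries, which again lay between the controls (log2FC 0.13, adjusted p 0.797). Its log2FC was 0.42 without control replicate 1, and neither direction was shared by both controls. Cdk16 is a kinase that mice need for normal sperm. Ccny, a cyclin known to act with Cdk16, had a log2FC of -0.08 (adjusted p 0.839). Whether Ccny is the partner of Cdk16 in testis was not examined here.

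**Figure D4:**
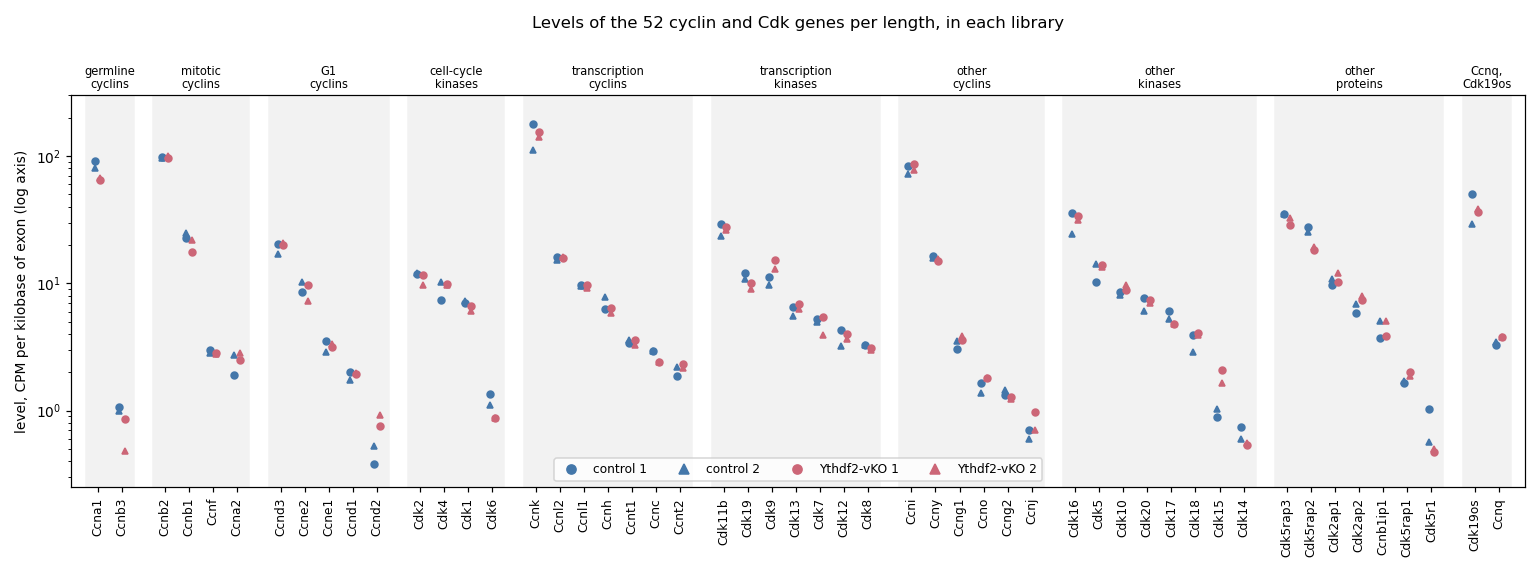
Level of each of the 52 genes in CPM per kilobase of exon (vertical log axis) in each of the 4 libraries, grouped by role. Ccnk, Ccnb2, Ccna1 and Ccni are the highest. Ccnd2 is the lowest in control, and Ccnk, Cdk16 and Cdk19os show control libraries well apart among the abundant genes.

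In control the order per length began with Ccnk at 145 ± 47.9, Ccnb2 at 97.5 ± 1.67, Ccna1 at 85.4 ± 7.69 and Ccni at 78.2 ± 8.13 CPM per kilobase. Ccnk lay above Ccnb2 in both control libraries, though its mean less 1 SD reached the level of Ccnb2, and Ccnb2 lay above Ccna1 in both. The ranges of Ccna1 (80.0 to 90.9) and Ccni (72.4 to 83.9) overlapped in control. In the libraries labelled vKO Ccni, a cyclin without an established cell-cycle role, was at 86.4 and 77.9 and Ccna1 under it at 64.3 and 66.6 CPM per kilobase. Exon length was the union over all annotated transcripts of a gene, so a gene with long rare isoforms takes a lower place in this order.

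Among the remaining kinases Cdk15 was furthest from 0. Cdk15 (ENSMUSG00000026023, chromosome 1, 59256906 to 59352993), whose role is little known, had 52 and 77 counts in control, against 141 and 111 in the vKO-labelled libraries, which is 2.22 and 2.57 against 5.27 and 4.11 CPM. Both libraries labelled vKO lay above both controls. The fit gave a log2FC of 0.96 (SE 0.27, unadjusted p 0.00328, adjusted p 0.144), and without control replicate 2 it was 1.07 with an adjusted p of 0.0464. Leaving out control replicate 1 gave 0.86 (adjusted p 0.0962), and without vKO replicate 1 it was 0.78 (adjusted p 0.772). Cdk18 had 18.5 and 13.7 against 19.2 and 18.7 CPM (log2FC 0.24, adjusted p 0.590), and its value came mainly from control replicate 2, without which it was 0.03. On the lower side, Cdk14 had 13.9 and 11.2 against 10.1 and 10.5 CPM (log2FC -0.28, adjusted p 0.530, and -0.13 without control replicate 1) and Cdk17 37.0 and 32.0 against 29.4 and 28.9 CPM (log2FC -0.24, adjusted p 0.479).

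A pair of cyclins of low level were among the higher values. Ccnj had 3.04 and 2.60 CPM in control, against 4.26 and 3.04 CPM in the vKO-labelled libraries (log2FC 0.38, SE 0.28, adjusted p 0.606), the nearest libraries of the groups being equal at this rounding. Without vKO replicate 1 its log2FC was 0.11, so that library carried most of the value. Ccno, known from cells with many cilia, had 4.24 and 3.5 against 4.63 in each library labelled vKO (log2FC 0.26, SE 0.24, adjusted p 0.688), and its log2FC was 0.13 without control replicate 2. The GC offset brought it to 0.11.

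The gene with the smallest p was neither a cyclin nor a kinase. Cdk5rap2 (ENSMUSG00000039298, minus strand of chromosome 4, 70216856 to 70410443) encodes a centrosome protein that recruits the gamma-tubulin ring complex. Its counts were 8430 and 9798 in control, against 6314 and 6768 in the vKO-labelled libraries, which is 361 and 327 against 236 and 251 CPM. Both libraries labelled vKO lay under both control libraries. The log2FC was -0.50 (SE 0.12, unadjusted p 0.00114, adjusted p 0.105). The authors' deposited table lists it at a log2FC of -0.50 (SE 0.14, adjusted p 0.0315). This log2FC and adjusted p match those of the DESeq2 Wald test given above on the same counts, so they are not separate support. No other of the 52 was under 0.05 in the authors' deposited table, in which 1.32% of genes with an adjusted p were. Without control replicate 1 its log2FC was -0.43 (adjusted p 0.0059) and without control replicate 2 it was -0.57 (adjusted p 0.000127). Over the 13 alternatives its adjusted p ran from 0.000127 to 0.740. Spermatocyte and elongating spermatid markers lay lower as well, with the summed levels given for Ccna1, and their part in this value was not tested.

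Cdk5r1, the p35 activator of Cdk5, had the lowest log2FC of the 52, with few counts behind it. It had 100 and 71 counts in control, against 53 and 56 in the vKO-labelled libraries, which is 4.28 and 2.37 against 1.98 and 2.08 CPM, and control replicate 1 stood apart from the other 3 libraries. Its log2FC was -0.70 (SE 0.33, adjusted p 0.368) and -0.23 without control replicate 1. Cdk2ap2 had 9.54 and 11.3 against 12 and 12.9 CPM (log2FC 0.26, adjusted p 0.566), and 0.06 with the GC offset. The remaining 25 of the 52 genes had log2FCs from -0.20 (Ccnh) to 0.21 (Cdk5rap1) and adjusted p values from 0.525 to 0.976.

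Genes that control these kinases were compared with them. Of 8 inhibitors of Cdks, 5 were higher and none was called. Cdkn1a, the p21 inhibitor, had 10.4 and 10.7 CPM in control, against 13.8 and 13.6 CPM in the vKO-labelled libraries (log2FC 0.38, unadjusted p 0.0412, adjusted p 0.328). Cdkn2b, an inhibitor of Cdk4 and Cdk6, had 5.22 and 5.10 against 6.09 and 8.41 CPM (log2FC 0.49, unadjusted p 0.0494, adjusted p 0.353), and 0.24 without vKO replicate 2. The median of the inhibitor list was 0.07, and it was -0.05 with the GC offset.

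Of 9 tested regulators of Cdk1 phosphorylation and Cdk-binding partners, 4 were higher, 5 were lower and none was called. Pkmyt1, which phosphorylates and holds back Cdk1, had 47.9 and 36.0 CPM in control, against 62.6 and 59.5 CPM in the vKO-labelled libraries (log2FC 0.54, SE 0.15, unadjusted p 0.0034, adjusted p 0.145). Its log2FC was 0.76 without control replicate 1 and 0.35 without control replicate 2, the highest and lowest on leaving out 1 library. Mnat1, the assembly factor of the Cdk7 complex, had 19.4 and 20.1 against 15.1 and 16.0 CPM (log2FC -0.35, unadjusted p 0.0409, adjusted p 0.328). Of 22 genes of cyclin destruction 14 were lower (median -0.04). The 2 with the smallest p were Fbxo43, an inhibitor of the anaphase-promoting complex that germ cells need in meiosis (42.4 and 37.6 against 31.0 and 28.9 CPM, log2FC -0.42, adjusted p 0.207), and Skp2, the receptor of a ubiquitin ligase (214 and 181 against 165 and 160 CPM, log2FC -0.28, adjusted p 0.332). Without control replicate 2 these log2FCs became -0.50 and -0.40, and without control replicate 1 they were -0.34 and -0.16.

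The retinoblastoma and E2F list, which acts downstream of the D-type cyclins, had 13 of 15 genes higher, beside 10632 of the 21132 genes tested. Its median log2FC was 0.22. At an unadjusted p under 0.05, 2 of the 15 were higher and 0 lower, where 7.65% of all genes were higher. Without vKO replicate 1 the median was 0.139. None was called. E2f5 had 23.4 and 25.5 CPM in control, against 33.7 and 34.5 CPM in the vKO-labelled libraries (log2FC 0.48, SE 0.14, adjusted p 0.159). Its log2FC was 0.55 without control replicate 2 and 0.41 without control replicate 1. Rb1 had 26.3 and 27.8 against 37.0 and 31.3 CPM (log2FC 0.34, adjusted p 0.312), and a log2FC of 0.21 without vKO replicate 1. Sertoli markers lay higher as well, and their part was not tested. Of 16 proliferation genes 12 were lower, beside 10500 of the 21132 genes tested, with a median of -0.02. At an unadjusted p under 0.05, 3 of the 16 were lower and 0 higher, where 6.47% of all genes were lower. Top2a had 225 and 243 against 181 and 177 CPM (log2FC -0.39, adjusted p 0.178), and Aurka 180 and 186 against 139 and 142 CPM (log2FC -0.38, adjusted p 0.178). Without control replicate 1 their log2FCs were -0.45 and -0.41, and without control replicate 2 they were -0.33 and -0.36.

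**Figure D5:**
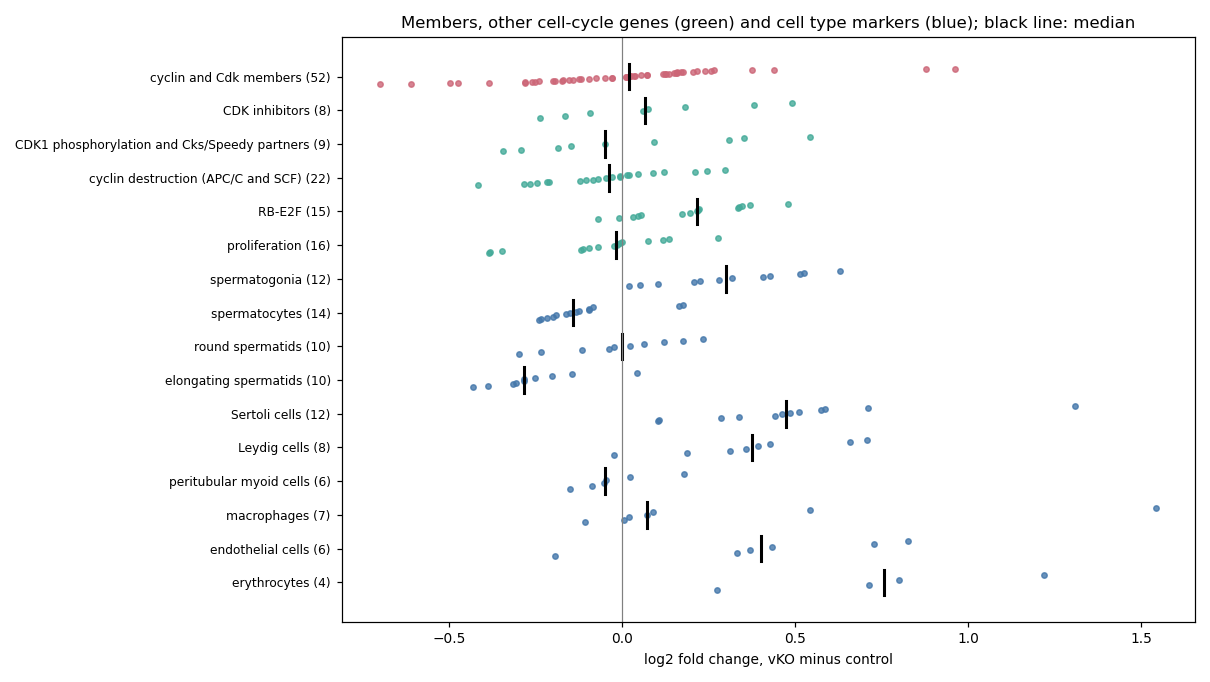
Log2FC (horizontal axis, libraries labelled vKO minus control) of each tested gene of the 52 studied (red), of 5 lists of other cell-cycle genes (green) and of 10 lists of cell type markers (blue), with the median as a black line and the number of genes in brackets. The 52 genes centre near 0, the Sertoli and spermatogonial markers lie above 0, and the elongating spermatid markers lie mostly under 0.

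The transcripts of the studied genes were searched for GGACT, a common form of the sequence at which m6A is laid down, in the longest annotated transcript of each gene and on the sense strand only. It was present in 47 of 52 (90.4%), beside 91.8% of the protein-coding genes tested, and its median density was 0.954 per kilobase beside 1.04. Cdk17 had the highest density, 2.49 per kilobase, and Ccnb1ip1, Ccni, Cdk2ap1, Cdk2ap2 and Cdk4 had no match. Among the 6 genes with an unadjusted p under 0.05 the densities were 1.16 in Ccna1, 0.948 in Ccnd2, 0.781 in Cdk6, 1.12 in Cdk9, 0.474 in Cdk15 and 1.27 in Cdk5rap2 per kilobase. The letters do not show methylation, which was not measured here.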

How the data were processed

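RNA of 4 testis samples was sequenced after ribosomal RNA depletion in directional libraries, per the labels' protocols. The submitters' processing notes name HISAT2 2.1.0 and HTSeq 0.6.1p1. The build, the annotation and the strand setting are not given in the sources used here. The authors deposited raw read counts per gene, with at least 10 counts over the 4 libraries in every gene, and a mean normalized signal. The deposited log2 fold change with its standard error (a score here), its statistic, p-value and adjusted p-value have the column names of DESeq2, per the file headers. Genes were joined by identifier, coordinates and exon lengths were taken from GENCODE M21 (GRCm38), in which 25261 identifiers were found, and promoters from RefSeq (GRCm38.p6).

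For testing, counts were scaled by TMM, filtered by filterByExpr and fitted on genotype alone with edgeR's robust quasi-likelihood method, two-sided (R 4.3.3; edgeR version 4.0.16). The procedure was tested on simulated data. The SE is the absolute log2 fold change divided by the square root of F. DESeq2 1.42.0 was an alternative. The replicates of a group differed by more than sampling noise (chi-square per degree of freedom 17.82 and 7.311), so none was merged. The labels name no molecular identifiers. Ratios of cyclins used 0.5 added counts. The members and lists were chosen with earlier results of these data known. Genes named are those of the cell-cycle lists, the 6 highest and 6 lowest log2 fold changes among the other genes with a mean of at least 1 CPM, and the 2 smallest p of each pathway list. Others named were chosen after their values were seen.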

Additional observations from a re-analysis of the deposited data

How the results depend on the processing

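Over all genes, 59 were called higher and 24 lower. The counts were 181 and 37 with library totals alone, 89 and 67 with a GC offset, 137 and 80 with a DESeq2 Wald test, and 50 and 15 without robust estimation. Leaving out 1 library gave 30 to 1048 higher and 5 to 523 lower calls. The replicate numbers, whose same-numbered libraries deviated together at a correlation of only 0.0904 over 2 pairs, were not taken to pair the samples. The replicate block gave 627 and 390, and with the GC offset 305 and 327. With the replicate block (4.81% of all genes called) 3 of the 52 genes were called higher (Ccnd2, Cdk9, Cdk15) and 2 lower (Ccna1, Cdk5rap2), and 2 and 2 with the GC offset added (2.99% of all genes; Cdk15 not called). The DESeq2 test called 0 higher and 1 lower, and leaving out 1 library gave 0 to 3 higher and 0 to 3 lower. At an unadjusted p under 0.05 the lower members numbered 3, but 7 with the replicate block, 5 with the GC offset and 6 with both, and 2 to 10 on leaving out 1 library. The higher ones numbered 2 to 8 on leaving out 1 library. Their median log2 fold change of 0.0202 became 0.0845 with library totals alone and ran from -0.0459 to 0.0324 on leaving out 1 library.

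Signs changed for 8 of the 38 genes named by the rules above, Ythdf2 included, in 13 of 494 alternatives, none of them called. Other genes discussed here, such as Ccnk and Cdk16, were not part of this count. Ccnf was 0.0161 with library totals alone. With the GC offset, without and with the replicate block, Ccnd3 was -0.00552 and -0.0055 and Ccne1 -0.0461 and -0.0444. On leaving out 1 library Ccna2 ran from -0.0358 to 0.497, Ccnb2 from -0.0278 to 0.0436, Ccnd1 from -0.0427 to 0.148, Ccne1 from -0.127 to 0.148, Ccne2 from -0.377 to 0.0376 and Cdk4 from -0.0799 to 0.42. The ratio of Ccna1 to Ccna2 differed by -0.966 to -0.259 and that of Ccnb3 to Ccnb1 by -0.979 to 0.182.

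List medians moved by more than 1 SD between replicates in 22 of 195 alternatives. With library totals alone they were 0.021 for the Cdk1 regulators, 0.0271 for cyclin destruction and 0.536 for Sertoli cells. With the GC offset, without and with the replicate block, they were -0.0492 and -0.0371 for Cdk inhibitors and 0.00465 and -0.00104 for cyclin destruction. On leaving out 1 library the ranges were -0.00125 to 0.13 for Cdk inhibitors, -0.0944 to 0.084 for Cdk1 regulators, -0.128 to -0.0284 for cyclin destruction, -0.128 to 0.0121 for proliferation, 0.139 to 0.269 for the retinoblastoma and E2F list, 0.237 to 0.455 for spermatogonia, -0.242 to -0.0567 for spermatocytes, -0.402 to -0.173 for elongating spermatids, 0.44 to 0.517 for Sertoli cells, -0.322 to 0.452 for myoid cells, -0.0867 to 0.47 for macrophages, 0.365 to 0.632 for endothelial cells and 0.407 to 1.07 for erythrocytes. For the changes with the offset, the block and the left-out libraries the cause was not tested. For genes with few counts, such as Ccnb3, Cdk5r1, Cdk15 and Ccnd2, depth limits the precision.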
